A study of Rattus norvegicus with 21 samples.

Results

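The comparison of cadmium with no treatment asked which microRNAs of INS-1 832/13 cells differ after exposure to the metal. INS-1 832/13 is an insulin-secreting rat line derived from a beta cell tumour. The comparison rests on 6 of the 21 libraries of the series, 3 labelled 5 µM cadmium (Cd) and 3 labelled untreated, all made from small RNA with a CleanTag kit. Cells were seeded at 1000000 per well of a 12-well plate, given the metal 24 h later and harvested after 24 h. Another 6 small RNA libraries, 3 from cells given 1 µM inorganic arsenic (iAs) and 3 from cells given 25 µM manganese (Mn) for the same time, shared the model and served for direct comparisons between metals. All cells are of 1 tumour line, and no label names a vehicle, the salt used or separate cultures. The p-values therefore cover only the spread among the libraries, and that may be technical.

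Each row of the table is a microRNA arm, or a form of it whose 5′ start lies some bases before or after the annotated start. Of 1186 rows, 523 had a mean of at least 10 RPMMM (reads per 1000000 reads mapped to microRNAs) over the 12 small RNA libraries and were tested, 279 with the annotated start and 244 with a shifted one. The rows just inside that limit averaged 10.09 (a form of miR-30a-5p) and 10.12 RPMMM (a form of miR-346), and those just outside 9.994 (a form of miR-20b-5p) and 9.986 RPMMM (a form of miR-151-5p). The tested rows held between 99.79% and 99.81% of each Cd or untreated library. The other 663 rows were not tested, and 63 of them were listed at 0 in all 6 libraries. Because hairpins can share a mature sequence, 36 tested rows held the same values as another row.

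MicroRNAs are short RNAs cut from hairpin precursors, each arm of which can give a mature strand, named 5p or 3p. Loaded into an Argonaute protein, a mature strand pairs with messenger RNAs mainly through its seed, bases 2 to 8 from its 5′ end, and lowers their translation and stability. MicroRNAs with the same seed form a family with overlapping targets, and a start shifted by 1 base gives another seed. In beta cells, miR-375 and miR-7 are abundant and restrain insulin secretion, and miR-132 and miR-212 are induced by cAMP signalling and favour it. Cadmium is a toxic metal that accumulates in pancreatic islets.

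The sequences below are those of the microRNAs on which the results turn, grouped by seed, so that shared seeds and near-identical copies can be seen. They come from RefSeq (assembly GRCr8), which held a mature sequence for all but 38 of the 523 tested rows. Letters run 5′ to 3′ and capitals mark the seed.

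The first group, lower with Cd, holds the 5p strands of the miR-15 family with the seed AGCAGCA, and miR-16-5p of the same seed, which was not called:
miR-195-5p: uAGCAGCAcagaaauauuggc
miR-497-5p: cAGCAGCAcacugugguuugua
miR-16-5p: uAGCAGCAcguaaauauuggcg

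The next pair, also lower, are strands of 2 hairpins of that family, whose 3p seeds coincide only in the miR-16-3p form that starts 1 base late:
miR-195-3p: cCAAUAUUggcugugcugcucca
miR-16-3p, start shifted by 1 base: cCAAUAUUauugugcugcuu

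Further lower strands came in near-identical pairs:
miR-101a-3p: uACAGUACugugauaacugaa
miR-101b-3p: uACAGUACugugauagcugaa
miR-30a-5p: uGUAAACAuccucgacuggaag
miR-30e-5p: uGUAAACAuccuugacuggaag
miR-103-3p: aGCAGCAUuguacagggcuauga
miR-107-3p: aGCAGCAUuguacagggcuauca

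The strands of the let-7 family that were higher share the seed GAGGUAG, as does let-7i-5p, which was not called:
let-7a-5p: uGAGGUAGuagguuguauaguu
let-7c-5p: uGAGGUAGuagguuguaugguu
let-7d-5p: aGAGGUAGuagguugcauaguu
let-7e-5p: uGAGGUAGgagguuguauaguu
let-7i-5p: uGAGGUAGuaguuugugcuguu

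The other strands shown are miR-212-3p with its uncalled seed partner miR-132-3p, the higher miR-490-5p, miR-194-3p and miR-184, and the lower miR-708-5p and miR-378a-3p, whose direct tests against other metals are given further on:
miR-212-3p: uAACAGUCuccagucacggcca
miR-132-3p: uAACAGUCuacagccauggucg
miR-490-5p: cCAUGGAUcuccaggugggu
miR-194-3p: cCAGUGGGgcugcuguuaucu
miR-184: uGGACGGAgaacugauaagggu
miR-708-5p: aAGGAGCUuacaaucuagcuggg
miR-378a-3p: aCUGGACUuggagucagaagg

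The 6 libraries held about 6320000 to 7720000 microRNA reads each, judged from the value of 1 read, which was sought only within a preset range. Depth is known only in this way and the values hold no counts, so no counting interval is given. The smallest value above 0 was 1.3 to 1.59 RPMMM in these libraries, so a listed 0 may stand for a level below that. Tissue is labelled liver in GEO, against the named cell line. The liver microRNA miR-122 summed to 4.9 to 6.79 RPMMM in untreated and 6.45 to 9.34 RPMMM in Cd libraries, while miR-7a-1-5p led each library with 10.1% to 11.8% of reads. Summed markers of muscle reached at most 2.68 RPMMM, those of blood cells 4.12, those of acinar cells 15.82 and those of endothelial and mesenchymal cells 217.64. These sums ranged from 179.81 to 201.27 RPMMM in untreated and from 201.47 to 217.64 RPMMM in Cd libraries for the endothelial and mesenchymal list, of which 3 rows were tested and 0 called. The muscle list did not take in miR-1b, so the muscle maximum leaves that strand out. miR-1b averaged at least 10 RPMMM over the 12 small RNA libraries and differed by -0.12 without a call. The part of other cells in the results was not tested.

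With Cd, the pair of miR-195 and miR-497, both miR-101 paralogs, miR-30a-5p, miR-30e-5p and miR-30d-5p, and miR-103 and miR-107 were lower, and several let-7 strands, miR-212-3p, miR-490-5p and miR-194-2-3p were higher than in untreated cells. In all, 55 of 523 rows passed the test (10.5%; limma adjusted p under 0.05), 19 higher (3.63%) and 36 lower (6.88%). Hairpin copies of 1 mature strand count as separate rows, and the 55 rows held 47 distinct forms, 16 higher and 31 lower. Copies and shifted forms within a family come from the same libraries, so they are no separate support for each other. Changes were small. Of the 55 rows, 4 differed by more than 1.5-fold, on the log2(RPMMM + 1) scale used for all differences here, which understates changes of rows with low values. The median log2 difference was -0.01 over all rows, and its median size was 0.37 among called rows and 0.15 among all rows. The Cd and untreated libraries did not overlap in 53 of the called rows, against 30.4% of all rows. Both overlapping rows, let-7e-5p and miR-3099, were higher with Cd on average. Rows with the annotated start were called in 40 of 279 cases (14.3%) and shifted ones in 15 of 244 (6.15%).

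**Figure D1:**
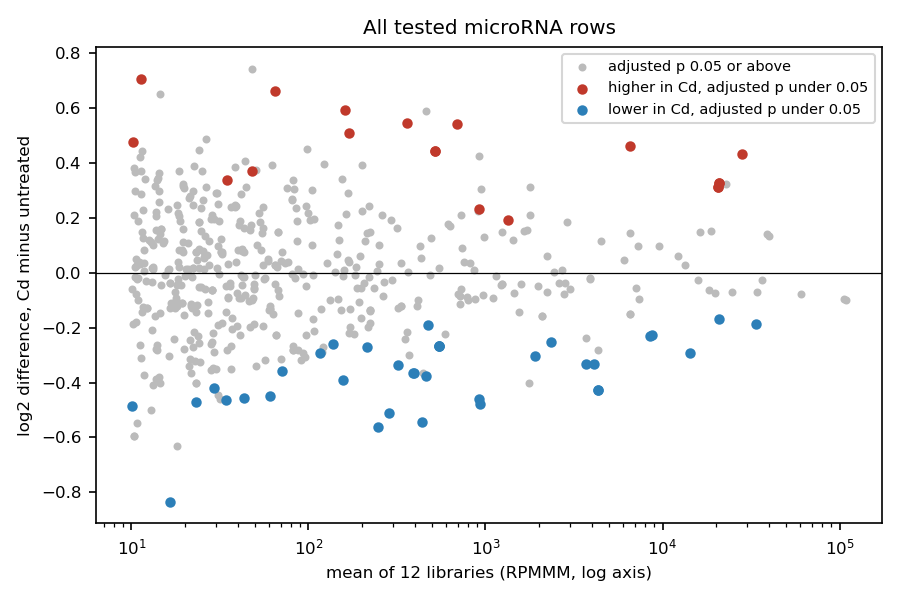
Log2 difference between Cd and untreated (vertical) against the mean level over 12 libraries in RPMMM (log axis), 1 point per tested row, with rows of adjusted p under 0.05 in red (19 higher) and blue (36 lower). Called rows span the range of levels, and 4 of them lie beyond 1.5-fold.

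These calls depended on single libraries. Without untreated replicate 1, untreated replicate 2 or Cd replicate 1, 1 row stayed called each time, miR-195-3p, and without Cd replicate 3 there were 0 (limma; 110 rows at an unadjusted p under 0.05). Without untreated replicate 3 there were 94, without iAs replicate 3 there were 36, and without Mn replicate 3 there were 30. A fit of the Cd and untreated libraries alone gave 0 calls, with 130 rows at an unadjusted p under 0.05 and a lowest adjusted p of 0.0712. Each call against untreated named below was therefore lost without each of those 4 libraries and in the fit of 2 groups, except that miR-195-3p was lost only without Cd replicate 3 among them and in that fit, while 0 of the 55 rows changed sign in any alternative. Untreated replicate 1 was the untreated library farthest from the Cd mean in 49 of the 55 called rows and in 333 of all 523 rows. Untreated replicate 3 was the nearest in 39 of the 55.

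**Figure D2:**
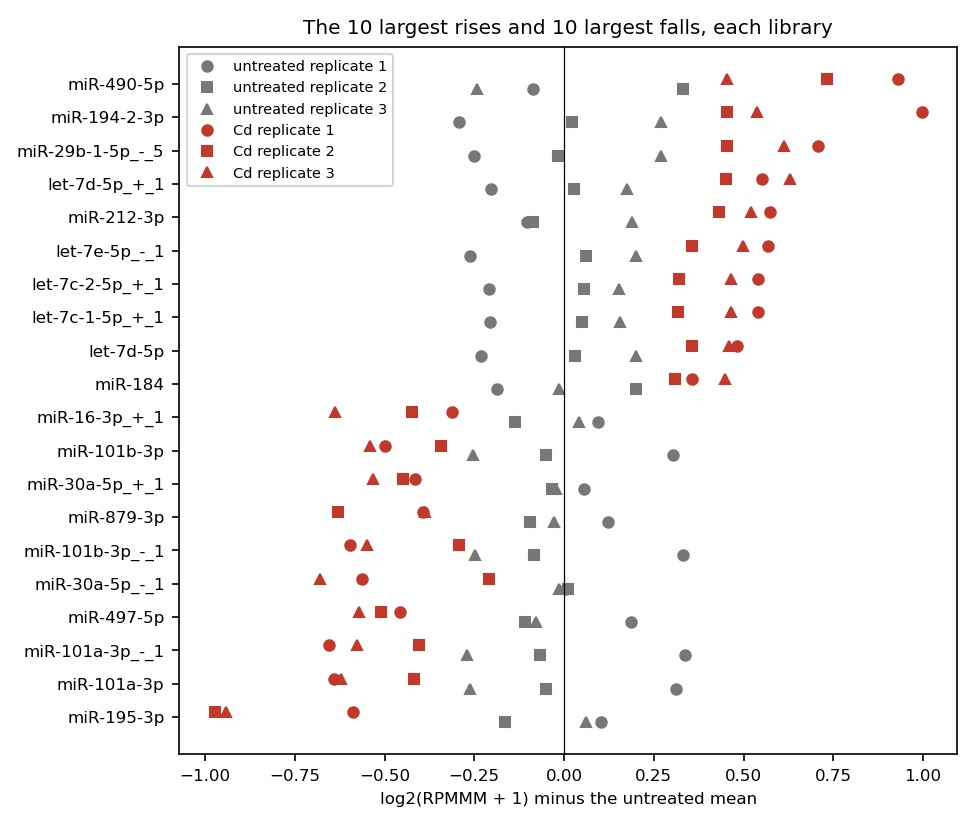
Log2(RPMMM + 1) of each library minus the untreated mean for the 10 largest rises and the 10 largest falls without overlap between the groups (grey untreated, red Cd, with the symbol giving the replicate). Untreated replicate 1 lies on the far side from Cd in most of these rows, and Cd replicate 2 is often the Cd point nearest to the untreated ones.

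The largest fall was in miR-195-3p, the 3p strand of a hairpin of the miR-15 family, a family known to repress cell cycle regulators. It stood at 20.3, 16.6 and 19.6 RPMMM in untreated replicates 1 to 3 and at 12.2, 9.07 and 9.30 RPMMM in the Cd libraries. Every Cd value was below every untreated one, and the log2 difference was -0.83 (SE 0.12, limma adjusted p = 0.0057). The 5p strand of the same hairpin, miR-195-5p, fell from 67.6, 64.3 and 68.8 to 49.0, 53.3 and 44.3 RPMMM, a log2 difference of -0.45 (SE 0.10, adjusted p = 0.023). miR-497-5p comes from the neighbouring hairpin and has the seed of miR-195-5p. It fell from 361, 294 and 300.2 to 230.4, 222.4 and 213 RPMMM (-0.51, SE 0.10, adjusted p = 0.019). The 3 tested rows of these 2 hairpins were thus all lower, without overlap.

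The abundant strand with that seed was not called. miR-16-5p stood at 15822 ± 705 RPMMM (SD, n = 3) in untreated and 15544 ± 739 RPMMM in Cd libraries (-0.03, adjusted p = 0.79). Its sequence differs from that of miR-195-5p at 2 of 21 bases, and how reads were divided between the pair is uncertain. Over the 6 rows with the seed AGCAGCA, 2 were lower and 0 higher, and the differences ran from -0.51 to -0.03, with miR-15b-5p at -0.12 and miR-322-5p at -0.23. Among the shifted forms, the miR-16-3p form that starts 1 base late fell from 52.1, 44.2 and 50.1 to 39.0, 36.0 and 30.9 RPMMM (-0.46, adjusted p = 0.046), and it has the seed of miR-195-3p, as the sequences above show. The form with the annotated start differed by -0.15 (adjusted p = 0.47). Over the whole miR-15 family, 4 of 16 tested rows were lower (25.0% called, against 10.5% of all rows) and 0 higher. The family's median log2 difference was -0.14, and leaving out untreated replicate 1 or 2 moved that median to -0.08 or -0.21. It was -0.225 over rows with the annotated start and distinct values.

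miR-101, known to repress the histone methyltransferase gene Ezh2, was lower in each of its 5 tested rows, with a median log2 difference of -0.48. Of these rows 4 were called (80.0%, against 10.5% of all rows). miR-101a-3p had 380.6, 296 and 256 RPMMM in untreated and 196, 229 and 198.9 RPMMM in Cd libraries (-0.56, SE 0.12, adjusted p = 0.023). miR-101b-3p had 1396, 1093 and 949.6 against 800.1, 892 and 778 RPMMM (-0.46, SE 0.12, adjusted p = 0.033). The untreated libraries were spread widely here, with replicate 1 highest in both, yet no Cd value reached the lowest untreated one. The 2 strands differ at 1 of 21 bases, so they may share reads. The forms that start 1 base early carry the seed UACAGUA and differed by -0.54 in miR-101a and by -0.48 in miR-101b. The form of miR-101b-3p starting 1 base late stood at -0.37 and was not called (adjusted p = 0.14). Without untreated replicate 1 the family's median was -0.31, with 0 calls.

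The miR-30 family, known for keeping islet-derived cells in an epithelial state, was lower in 7 of 21 tested rows and higher in 0. That is 33.3% called, against 10.5% of all rows. In the family, 19 differences lay below 0, against 271 of 523 over all rows, and the median was -0.19. miR-30a-5p had 4586, 4137 and 3865 RPMMM untreated against 3127, 3567 and 3299 RPMMM with Cd (-0.33, SE 0.08, adjusted p = 0.029). miR-30e-5p, which differs from it at 1 of 22 bases, had 5366, 4361 and 4416 against 3517, 3888 and 3773 RPMMM (-0.33, adjusted p = 0.033). In both, untreated replicate 1 was the highest library and the groups did not overlap. miR-30d-5p, at 36960 ± 1717 RPMMM untreated and 32426 ± 1199 RPMMM with Cd (SD, n = 3 each), fell by 0.19 on the log2 scale (adjusted p = 0.035). The other called rows were miR-30e-3p (-0.19), the forms of miR-30a-5p that start 1 base early (-0.48) and 1 base late (-0.46), and the late form of miR-30e-5p (-0.33). The early form of miR-30a-5p averaged 12.14 RPMMM untreated and 8.49 RPMMM with Cd. It passed the limit of 10 RPMMM only with its untreated libraries counted.

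miR-103 and miR-107, known for acting on insulin sensitivity through caveolin-1, share the seed GCAGCAU. miR-103-3p (both hairpin copies) and miR-107-3p, which differ at 1 of 23 bases, were all called. miR-107-3p had 2365, 2086 and 2072 RPMMM untreated and 1722, 1851 and 1706 RPMMM with Cd (-0.30, adjusted p = 0.023), and miR-103-3p differed by -0.23 (adjusted p = 0.023). No Cd value reached the lowest untreated one in either strand. In miR-107-3p, however, the untreated libraries spanned more than the gap between the lowest untreated and the highest Cd library.

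The hairpins of miR-25, miR-93 and miR-106b lie in the replication helicase gene Mcm7, and miR-93 and miR-106b are known to repress the cell cycle inhibitor p21. Of 15 tested rows of these hairpins 3 were lower and 0 higher, against 6.88% lower and 3.63% higher over all rows. miR-93-5p had 16377, 16431 and 15596 RPMMM untreated against 13744, 13367 and 12453 RPMMM with Cd (-0.29, SE 0.08, adjusted p = 0.033). miR-25-3p differed by -0.17 and its form that starts 1 base late by -0.27. miR-106b-5p, at -0.40, was not called (adjusted p = 0.052). All 15 tested rows of the miR-17 family, which includes miR-93 and miR-106b, had differences below 0 (median -0.24, and 14 of them after quantile normalization). Over all rows it was 271 of 523. Of the miR-17 family rows 1 was called (6.67%, against 10.5% of all rows).

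Several other strands were lower. miR-708-5p, known to be induced with the transcription factor CHOP in endoplasmic reticulum stress, had 86.9, 79.8 and 84.7 RPMMM untreated and 63.6, 65.3 and 66.5 RPMMM with Cd (-0.36, SE 0.09, adjusted p = 0.029). miR-378a-3p, encoded in the coactivator gene Ppargc1b, had 2721, 2670.1 and 2656 against 2185, 2275 and 2293 RPMMM (-0.25, SE 0.05, adjusted p = 0.019). In both, the libraries of each group lay closer together than the gap between the groups. The 2 hairpin copies of miR-218a-5p differed by -0.37, the 3 of miR-9a-5p by -0.27, and miR-879-3p by -0.47. miR-181c-3p was lower too (-0.26). The naming rule did not pick every called row, and the rest are given because they were called. Of these, miR-103-3p, miR-107-3p, miR-30d-5p, miR-30e-5p and its late form are described above, and let-7a-5p, 1 copy of miR-9a-5p and a form of miR-200c-3p further on. The others were miR-340-5p (-0.43), a form of miR-3068-3p (-0.42), miR-301a-5p (-0.39), miR-3559-5p (-0.38), a form of miR-103-3p (-0.29), miR-3099 (0.54), miR-196a-5p (0.23) and miR-151-5p (0.19).

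The let-7 family, known for promoting differentiation and for damping insulin and growth factor signalling, was higher in 10 of 71 tested rows and lower in 0. That is 14.1% called, against 10.5% of all rows called and 3.63% called higher. The family's median log2 difference was 0.14, with 58 differences above 0, against 252 of 523 over all rows. Copies of let-7a-5p and let-7c-5p count as separate rows here. let-7d-5p had 19303, 23128 and 26027 RPMMM untreated and 31654, 29018 and 31165 RPMMM with Cd (0.43, SE 0.11, adjusted p = 0.029). let-7a-5p had 15829, 18510 and 19544 against 22798, 21423 and 22486 RPMMM (0.31, SE 0.08, adjusted p = 0.029). Among untreated libraries replicate 1 was lowest and replicate 3 highest in both, and all Cd libraries lay above them. let-7c-5p (0.33) and let-7e-5p (0.46) were also called, and in let-7e-5p Cd replicate 2, at 6206 RPMMM, overlapped untreated replicate 3, at 6210.0 RPMMM. Of the 12 rows with the seed GAGGUAG, which hold 9 distinct forms, 6 rows (4 forms) were higher and 11 rows had differences above 0. The uncalled ones included let-7b-5p (0.32, adjusted p = 0.10), let-7g-5p (0.15, adjusted p = 0.06) and let-7i-5p, at 37677 ± 407 RPMMM untreated and 37018 ± 1752 RPMMM with Cd (SD, n = 3 each; -0.03, adjusted p = 0.75).

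The shifted let-7 forms and the opposite arms add detail. The forms starting 1 base late, with the seed AGGUAGU, differed by 0.54 in let-7d-5p and by 0.44 in let-7c-5p, and the early form of let-7e-5p by 0.47. miR-196a-5p has that same seed AGGUAGU at its annotated start and was higher as well, while miR-196b-5p, also with that seed, differed by -0.12 (adjusted p = 0.25). In 3 let-7 hairpins the arms pointed apart, the 5p strand being called higher while the 3p strand lay below 0 without a call, at -0.28 in let-7a-1 and let-7c-2, whose 3p rows hold the same values, and at -0.20 in let-7e. Since let-7a-5p differs from let-7c-5p, let-7e-5p and let-7f-5p at 1 of 22 bases and from let-7d-5p at 2, reads may be split between them. The let-7d-5p mean of 30612 RPMMM with Cd compares with 29103 RPMMM with iAs and 29742 RPMMM with Mn, and the 10 let-7 rows passed neither direct test between metals. Without untreated replicate 1 the family's median was 0.07. Without untreated replicate 3 it was 0.19 with 17 rows called, against 94 of 523 over all rows. It was 0.27 at a mean of at least 50 RPMMM and 0.31 over rows with the annotated start and distinct values.

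**Figure D3:**
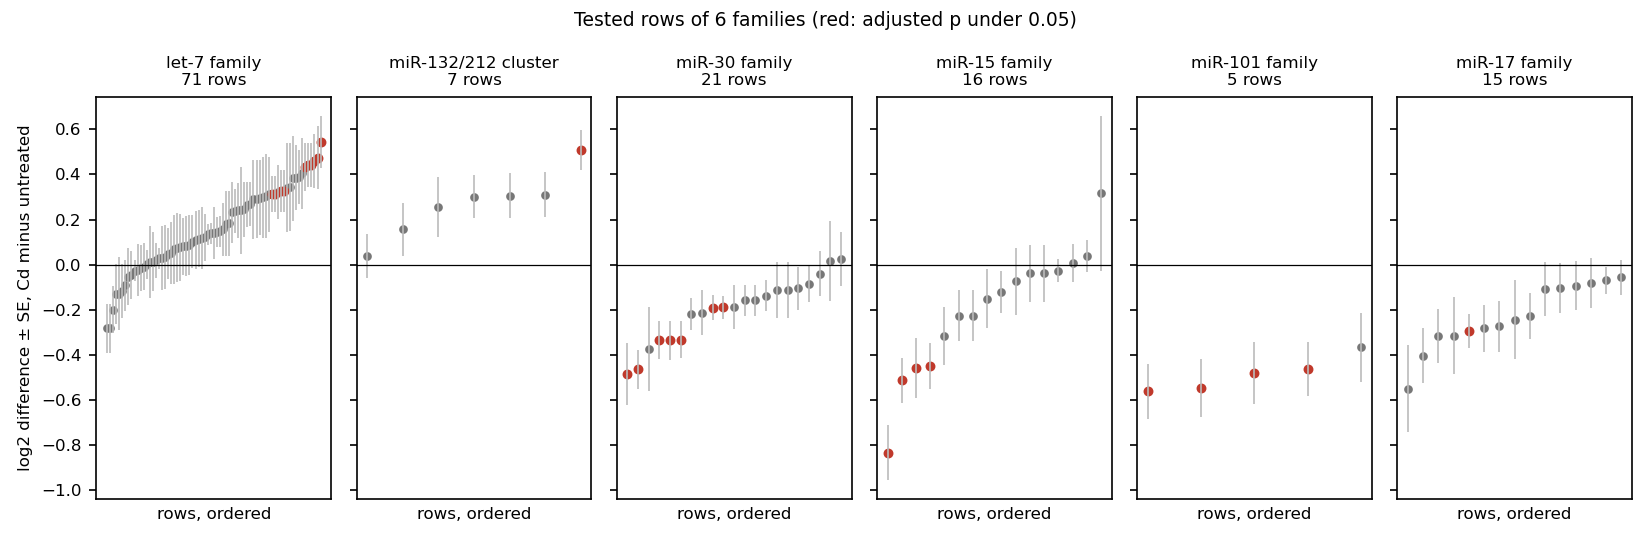
Log2 difference between Cd and untreated with its standard error (bars) for each tested row of 6 families, ordered within each family, red where the adjusted p is under 0.05. Called let-7 and rows of miR-132 and miR-212 lie above 0, and called miR-30, miR-15, miR-101 and miR-17 rows below it.

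miR-212-3p, induced through the transcription factor CREB together with its neighbour miR-132, had 136.5, 138 and 168 RPMMM untreated and 219, 198 and 211 RPMMM with Cd. The Cd libraries lay above the untreated ones, a log2 difference of 0.51 (SE 0.09, adjusted p = 0.015). miR-132-3p, of the same seed, went from 1634 ± 234 to 2020.1 ± 180.6 RPMMM (SD, n = 3 each; 0.31, adjusted p = 0.057) and was not called. All 7 tested rows of the 2 hairpins had differences above 0 (median 0.30), against 252 of 523 over all rows. Of the 7, 1 was called (14.3%, against 10.5% of all rows). Without untreated replicate 3, 6 of the 7 were above 0 and 4 were called, against 94 of 523 over all rows. There were 4 calls among 4 rows at a mean of at least 50 RPMMM, where 62 of all 260 rows were called. Median-of-ratios rescaling gave 3 (66 of 523 over all rows) and quantile normalization 2 (21 of 523). Rows with the annotated start and distinct values gave 3 (49 of 266). Without untreated replicate 2 the median was 0.20, with 0 calls. miR-132-5p stood at 0.30 (adjusted p = 0.058), the late form of miR-132-3p at 0.31 (adjusted p = 0.067) and miR-212-5p at 0.26 (adjusted p = 0.23).

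The largest rise among called rows was in miR-490-5p, a scarce strand with 8.86, 12.2 and 7.85 RPMMM untreated and 18.97, 16.4 and 13.4 RPMMM with Cd (0.71, SE 0.19, adjusted p = 0.033). It passed the limit of 10 RPMMM only with its Cd libraries counted, so its selection for testing leaned on the group where it is high. That limit also holds for its direct tests further on. miR-483-5p had a larger difference, 0.74, and was not called (adjusted p = 0.051). miR-194-2-3p had 41.8, 52.2 and 62.1 against 103, 70.8 and 75.0 RPMMM (0.66, SE 0.15, adjusted p = 0.023). Cd replicate 1 was the highest library in both miR-490-5p and miR-194-2-3p, and neither overlapped. The 5p strand of the miR-194-2 hairpin was not called, with 2514 ± 267 RPMMM untreated and 2515 ± 191.97 RPMMM with Cd (SD, n = 3 each; adjusted p = 0.98). Of the 8 tested rows of the hairpins of miR-192 and miR-194, which are typical of gut and liver epithelium, 1 was called. That is 12.5%, against 10.5% of all rows. miR-192-5p stood at 0.10 and miR-194-1-5p at -0.10. A row of miR-29b-1-5p with a start shifted by 5 bases, read here as upstream although the table does not define the sign, had 93.7, 110.3 and 135 against 182.95, 153 and 171 RPMMM (0.59, SE 0.13, adjusted p = 0.023). Its arm had no tested row with the annotated start, and the other arm of that hairpin, miR-29b-1-3p, differed by -0.06 (limma adjusted p = 0.79). miR-29a-3p, a miR-29 strand known to repress the lactate transporter Mct1 in beta cells, differed by 0.06 (limma adjusted p = 0.72).

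Of the 20 hairpins with both arms tested and at least 1 called, 15 had both arms on the same side of 0 and 2 had both called, miR-195 and miR-30e. The 2 copies of miR-340 hold the same values on both arms and count separately among the 15. The share over all hairpins with both arms tested was not taken. miR-25 and miR-378a differed in sign between arms, as did the 3 let-7 hairpins above. Of the 15 called rows with a shifted start, 14 had a tested row with the annotated start, on the same side of 0 in all 14 and called in 11. These pairs come from the same hairpins and libraries, so they are no separate support for each other.

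Among the microRNAs best known from beta cells, 2 of 59 tested rows were higher and 3 lower, or 8.47% called against 10.5% of all rows, and the median was -0.07 (-0.11 without untreated replicate 3 and -0.05 after median-of-ratios rescaling). miR-375-3p had 60803 ± 2962 RPMMM untreated and 57568 ± 3414 RPMMM with Cd (SD, n = 3 each; -0.08, adjusted p = 0.45). miR-7a-1-5p differed by -0.10 (adjusted p = 0.27) and miR-204-5p by -0.10 (adjusted p = 0.38). The 2 higher rows were miR-184, known to target the Argonaute gene Ago2 in beta cells, with 34.8, 45.9 and 39.4 against 51.2, 49.5 and 54.6 RPMMM (0.37, adjusted p = 0.043), and a shifted form of miR-200c-3p (0.34). The 3 lower ones are the copies of miR-9a-5p, a strand known to reduce insulin release through Onecut2. Of 22 rows of microRNAs known to respond to oxidants, DNA damage, hypoxia or NF-kB, 0 were called by limma. The hypoxia-responsive miR-210-3p differed by -0.37 (adjusted p = 0.086), miR-21-5p by -0.28 (adjusted p = 0.14), the p53 target miR-34a-5p by 0.13 (adjusted p = 0.58) and the NF-kB-induced miR-146a-5p by 0.20 (adjusted p = 0.27).

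Among the remaining lists, that of miR-25 and miR-92 was lower in 2 of 16 rows (12.5%) and higher in 0. The list of miR-181 was lower in 1 of 6 (16.7%) and higher in 0, against 10.5% of all rows called. The list of miR-25 and miR-92 also holds strands of other seeds, such as miR-19b-3p. Of the 5 rows with the seed AUUGCAC, 1 was lower and 0 higher. Limma called 0 of 26 rows of the clusters of miR-23, miR-24 and miR-27, 0 of 6 of miR-26, 0 of 7 of miR-99 and miR-100, 0 of 10 of miR-148 and miR-152, 0 of 1 of miR-221 and miR-222 and 0 of 5 of the imprinted Dlk1-Dio3 cluster. Their medians were -0.0015, -0.04, 0.14, -0.09, -0.12 and 0.05 in that order.

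Direct tests of Cd against the other metals came from the same fit and share the Cd libraries with the comparison above, so the values are given side by side. Against Mn, 39 of 523 rows passed (7.46%), 19 higher (3.63%) and 20 lower (3.82%) with Cd, and against iAs 15 passed (2.87%), 12 higher (2.29%) and 3 lower (0.574%). The count against Mn was 4 without Mn replicate 1, 8 without Cd replicate 3, 16 without Cd replicate 1 or Mn replicate 3 and 20 without Mn replicate 2. The count against iAs was 5 without Cd replicate 3 or iAs replicate 3, 6 without Cd replicate 2, 8 without untreated replicate 2 or iAs replicate 1 and 9 without Mn replicate 2. With the replicate number as a block, it was 8 over the 12 libraries and 25 in the Cd and iAs libraries alone. Of the 55 rows called against untreated, 10 passed against Mn and 4 against iAs, and 44 passed neither.

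miR-195-3p was lower with Cd than with either metal, at 10.2 ± 1.72 RPMMM with Cd, 17.3 ± 0.84 with iAs and 20.2 ± 0.11 with Mn (SD, n = 3 each). The differences were -0.72 against iAs (adjusted p = 0.0051) and -0.94 against Mn (adjusted p = 0.0017), and both stayed called in all 23 alternatives that gave a value. miR-497-5p, at 221.99 RPMMM with Cd, 314 with iAs and 293 with Mn, differed by -0.49 (adjusted p = 0.017) and -0.40 (adjusted p = 0.028), in 20 and 17 of 24 alternatives. miR-195-5p passed against Mn (-0.39, adjusted p = 0.030) and not against iAs (-0.36, adjusted p = 0.072). The call of miR-497-5p against iAs was lost without Cd replicates 2 or 3 or iAs replicates 2 or 3 (highest adjusted p = 0.097) and that against Mn without each Cd or Mn library or with no filter (highest adjusted p = 0.12). That of miR-195-5p against Mn was lost without Cd replicates 1 or 3 or any Mn library or with no filter (highest adjusted p = 0.16).

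miR-212-3p was at 209 ± 10.5 RPMMM with Cd, 181.4 ± 6.57 with iAs and 136.4 ± 8.54 with Mn (SD, n = 3 each), a difference of 0.62 from Mn (adjusted p = 0.0022), called in all 24 alternatives, and of 0.21 from iAs (adjusted p = 0.25). Its relatives were higher than with Mn as well, miR-132-3p by 0.41 (adjusted p = 0.022) and miR-212-5p by 0.54 (adjusted p = 0.028). miR-490-5p, at 16.2, 11.3 and 8.3 RPMMM with Cd, iAs and Mn, differed by 0.88 from Mn (adjusted p = 0.015) and by 0.49 from iAs (adjusted p = 0.19). The call of miR-490-5p against Mn was lost without Cd replicate 1 or Mn replicate 1 (highest adjusted p = 0.062). Those of miR-132-3p and miR-212-5p held in 18 of 24 and 17 of 23 alternatives, and were lost, among others, without Cd replicates 1 or 3 or Mn replicates 1 or 3. The other rows called against untreated that passed against Mn were both copies of miR-218a-5p (-0.42), miR-30e-3p (-0.25) and the late form of miR-16-3p (-0.48), each lower with Cd, and called in 20, 20 and 7 alternatives. The call of the miR-16-3p form was lost, for one, without each Cd library.

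**Figure D4:**
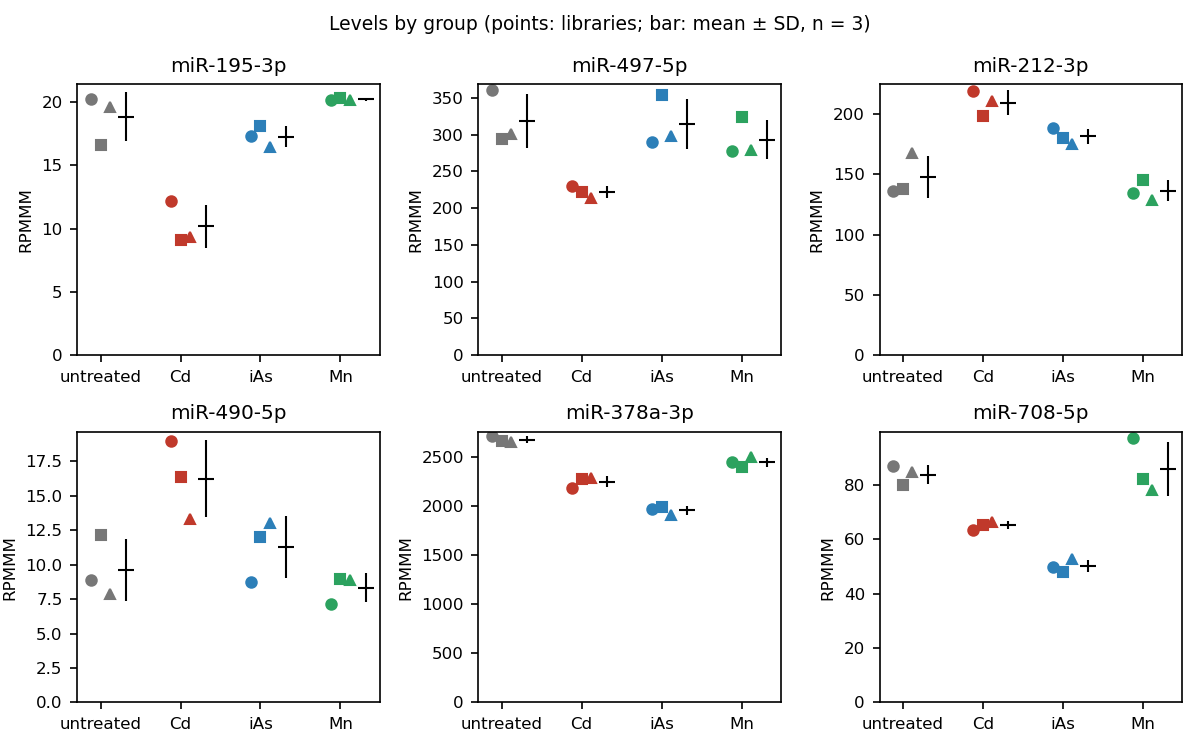
Levels in RPMMM (axes from 0) of 6 microRNAs in the 3 libraries of each group, with the mean and SD as bars. miR-195-3p and miR-497-5p are lowest with Cd, miR-490-5p is highest with Cd, and miR-378a-3p and miR-708-5p with Cd lie between the untreated and the iAs libraries.

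miR-708-5p and miR-378a-3p were lower than in untreated cells but higher than with iAs. miR-708-5p averaged 83.8 RPMMM untreated, 65.1 with Cd, 50.2 with iAs and 85.8 with Mn, a difference of 0.37 from iAs (adjusted p = 0.041) and of -0.39 from Mn (adjusted p = 0.019). miR-378a-3p averaged 2682, 2251, 1959 and 2451 RPMMM in the same order, 0.20 above iAs (adjusted p = 0.041) and -0.12 from Mn (adjusted p = 0.15). The calls against iAs were lost in most alternatives, holding in 11 of 24 for miR-708-5p and 8 of 24 for miR-378a-3p, and that of miR-708-5p against Mn in 21, not without Cd replicates 1 or 3 or Mn replicate 1. With the replicate block the adjusted p against iAs was 0.078 and 0.087 over the 12 libraries and 0.043 for both in the Cd and iAs libraries alone. miR-146a-5p, not called against untreated, had 17.5 RPMMM with Cd and 28.9 with iAs (-0.70, adjusted p = 0.0051, called in all 23 alternatives). miR-101 and let-7 rows passed neither direct test, with miR-101a-3p at 207.99 RPMMM with Cd, 273 with iAs and 195.03 with Mn. A difference that misses the threshold does not show that the metals act alike.

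The differences varied with base composition. In 230 distinct mature strands cut into 3 parts by A and U content, the part lowest in A and U (27.3% to 47.8%) had a median log2 difference of 0.13, the middle part -0.04 and the highest (57.1% to 77.3%) -0.10. Of the 30 called strands, 5 lay in the lowest part (3 higher, 2 lower), 12 in the middle part (2 higher, 10 lower) and 13 in the highest part (5 higher, 8 lower). Called strands ranged from 40.0% to 72.7% in A and U. The 30 strands below that range and the 3 above it are uncalled by its definition, which is no result about them. The median content was 54.5% among higher and 53.5% among lower strands, against 52.4% over all. Within groups the libraries also spread along this axis. In untreated replicate 1 the strands of the lowest part deviated from the group mean by a median of -0.08 and those of the highest part by 0.15, and in untreated replicate 3 by 0.13 and -0.08. Cd replicates 1 and 2 were apart in the same way, at 0.14 and -0.05 in replicate 1 and -0.13 and 0.07 in replicate 2. The part of base composition in the called differences was not tested.

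**Figure D5:**
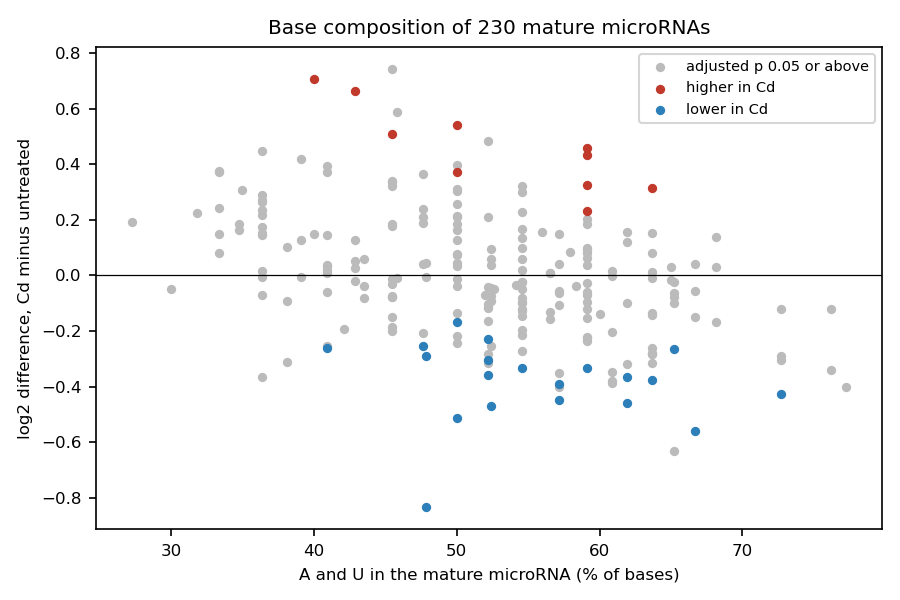
Log2 difference between Cd and untreated (vertical) against the share of A and U bases in percent (horizontal) for 230 distinct mature microRNAs with the annotated start, red where higher and blue where lower at an adjusted p under 0.05. Differences drift down with A and U content, from a median of 0.13 in the lowest of 3 parts to -0.10 in the highest, and called strands lie between 40.0% and 72.7%, with 5 of 30 in the lowest part.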

How the data were processed

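The table held 12 small RNA libraries, with 3 in each of 4 groups. The authors counted reads with miRquant, per the labels' table name, and deposited RPMMM, a form of RPM scaled to 1000000 microRNA reads per library, per the column sums. The submitters' processing notes name the genome build rn6, and STAR, Salmon and DESeq2, without roles; the mapping parameters are not given in the sources used here. Between 62.4% and 73.7% of low values per library were whole multiples of the value of 1 read (tolerance 0.0075 RPMMM), which did not recover reads, and no count test was run. That value gave depths of about 5910000 to 7910000 reads.

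Columns were matched to samples by library code. Differences were tested with limma 3.58.1 (limma-trend, R 4.3.3) on log2(RPMMM + 1) for rows averaging 10 RPMMM or more, in 1 fit of 4 groups, with Benjamini-Hochberg adjustment over 523 rows at 0.05. The test was checked on simulated data with independent noise in each row and library. That check does not cover the deviations that the libraries here shared across rows. After removal of group means, Cd and iAs libraries of the same number correlated at 0.366, 0.457 and 0.182. Those of different numbers ranged from -0.464 to 0.173, the latter between Cd replicate 3 and iAs replicate 1. These correlations are the sole source of a pairing there, so blocked values stand beside that comparison. Alternatives covered the groups fitted, pseudocount, filter, scaling, trend, block and each library left out.

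The microRNAs named were the 10 largest rises and 10 largest falls without overlap, other rows of their hairpins, the 2 smallest adjusted p per list, fixed microRNAs, and rows also called between metals. Other called rows (miR-103, miR-107, miR-30d-5p, miR-30e-5p and let-7a-5p among them) and uncalled seed mates and family members beside them (miR-15b, miR-322, miR-196b, let-7b, let-7g and let-7i), and miR-483-5p, were named after their values were seen. Members, lists and this rule were chosen with earlier results of these data known. List stems also matched their number followed by a, decided once row names were known. Neither let-7g nor miR-1b is in any list. Lists hold both arms and shifted forms, so the rows of a list need not share a seed. Hairpins were called neighbours within 10 kb in RefSeq. The files do not define the sign of a shifted start; negative was read as upstream, and shifted forms take the annotated 3′ end.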

Additional observations from a re-analysis of the deposited data

How the results depend on the processing

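The 55 calls of Cd against untreated became 0 with the 2 groups alone (130 rows at an unadjusted p under 0.05 in limma), 20 with no filter on low values, 21 with quantile normalization and 16 without the mean trend. They lay within 1.5 times of 55 under both pseudocounts, the limit of 50 RPMMM, median-of-ratios rescaling, rows with the annotated start and distinct values, and robust estimation. Leaving out 1 library gave 0 to 94 calls, the lone pair left being assumed to vary like the other groups. Of the 55 rows, 0 changed sign in any alternative.

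The numbers do not pair Cd with untreated libraries (correlations of -0.623, -0.158 and 0.175, with untreated replicate 1 closest to Cd replicate 2 at 0.686). A replicate block over 12 libraries gave 47 calls, and with the 2 groups alone 0 (90 rows at an unadjusted p under 0.05).

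The 15 calls against iAs became 8 with the 2 groups alone, 3 at a mean of at least 50 RPMMM, 8 with a replicate block over 12 libraries and 25 with a block in the 2 groups, and 5 to 18 with 1 library left out. After quantile normalization the split was 9 higher and 8 lower. The 39 calls against Mn became 25 at a mean of at least 50 RPMMM and 4 to 48 with 1 library left out. With a replicate block they became 31 over 12 libraries and 55 in the 2 groups. Cd and Mn libraries of the same number correlated at 0.043, 0.179 and 0.126 after removal of group means. The causes of these changes were not tested. Values without counts limit what can be said of rows near 10 RPMMM.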
